A study of Arabidopsis thaliana and Lotus japonicus with 44 samples.

Results

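The genes described here are 10 Arabidopsis genes of jasmonate synthesis: the 13-lipoxygenases LOX2 (AT3G45140), LOX3 (AT1G17420) and LOX4 (AT1G72520), the allene oxide synthase AOS (AT5G42650), the allene oxide cyclases AOC1 (AT3G25760), AOC2 (AT3G25770) and AOC3 (AT3G25780), the reductase OPR3 (AT2G06050), the conjugating enzyme JAR1 (AT2G46370) and the plastid envelope protein JASSY (AT1G70480). They were taken from the Arabidopsis count tables by gene identifier, as 10 of 36796 annotated genes, with transcript counts summed per gene. Of these 10, 8 held at least 10 counts in at least 1 of the 30 libraries and were tested together with all 16540 genes that did. LOX2 and OPR3 did not, and they have levels but no test.

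The RNA came from roots of 6-week-old seedlings on plates, and each library pooled roots of several seedlings from 1 plate. On the low-nutrient medium (LN), which is short of phosphorus, nitrogen and potassium, there were 3 libraries of line 308 and 5 of the wild type Col-0, all with germinated spores of the arbuscular mycorrhizal fungus R. irregularis (+AM). On the standard medium (1/2 MS) there were 4 libraries of line 308, 3 of line 310 and 4 of Col-0 with the fungus, and 4, 3 and 4 libraries of the same genotypes after mock inoculation (-AM). The spores were added to the roots only shortly before collection, so +AM does not mean roots grown with the fungus. Lines 308 and 310 are independent homozygous insertions of IPD3-Min, the DNA-binding part of a symbiosis transcription factor that Arabidopsis lacks, driven by the UBIQUITIN10 promoter. Both lines also carry an mCherry marker under the 35S promoter. Col-0 carries no empty vector, so the marker and IPD3-Min cannot be told apart in any comparison with Col-0. Medium could be compared only with the fungus present, and only in line 308 and Col-0. The labels number the libraries of a group as replicates, but nothing states that they are separate experiments, so the p-values measure the spread between these pools.

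Jasmonates are lipid hormones that plants make from polyunsaturated fatty acids of plastid membranes. In the plastid, a 13-lipoxygenase adds oxygen to the fatty acid, AOS turns the hydroperoxide into an unstable allene oxide, and an AOC closes the ring to give OPDA. JASSY passes OPDA out through the plastid envelope, OPR3 reduces it in the peroxisome, beta-oxidation shortens the side chain, and JAR1 joins jasmonic acid to isoleucine, which gives the hormone that the receptor reads. The pathway is best known from wounded or insect-damaged leaves, and several of its genes are themselves switched on by jasmonate.

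The way the counts were made limited how well genes with several isoforms could be measured. Read pairs were counted per transcript, and a pair that overlapped more than 1 annotated transcript was not counted, so a gene with several isoforms kept only pairs from bases found in 1 isoform. LOX3, LOX4, AOS, AOC1, AOC2 and AOC3 have 1 annotated transcript each, and all of their exon bases could be counted. LOX2 has 2 transcripts, and 316 of its 3252 exon bases (9.7%) lie in only 1 of them. For OPR3 the share was 16.8% over 3 transcripts, for JAR1 18.1% over 4, and for JASSY 31.9% over 2. LOX2 had 0 counts in all 30 libraries, and OPR3 had 34 counts in all with at most 4 in a library. These 2 values say that few usable pairs fell on those bases, and they do not measure how strongly the genes were expressed. Whether low expression in roots also had a part was not tested. JAR1 had 286 counts and JASSY 1543 counts over the 30 libraries, and their values follow the isoforms that could be counted. For JASSY, 1495 counts came from its first transcript and 48 from its second, and for JAR1, 224 came from 1 isoform and 62 from another.

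**Figure D1:**
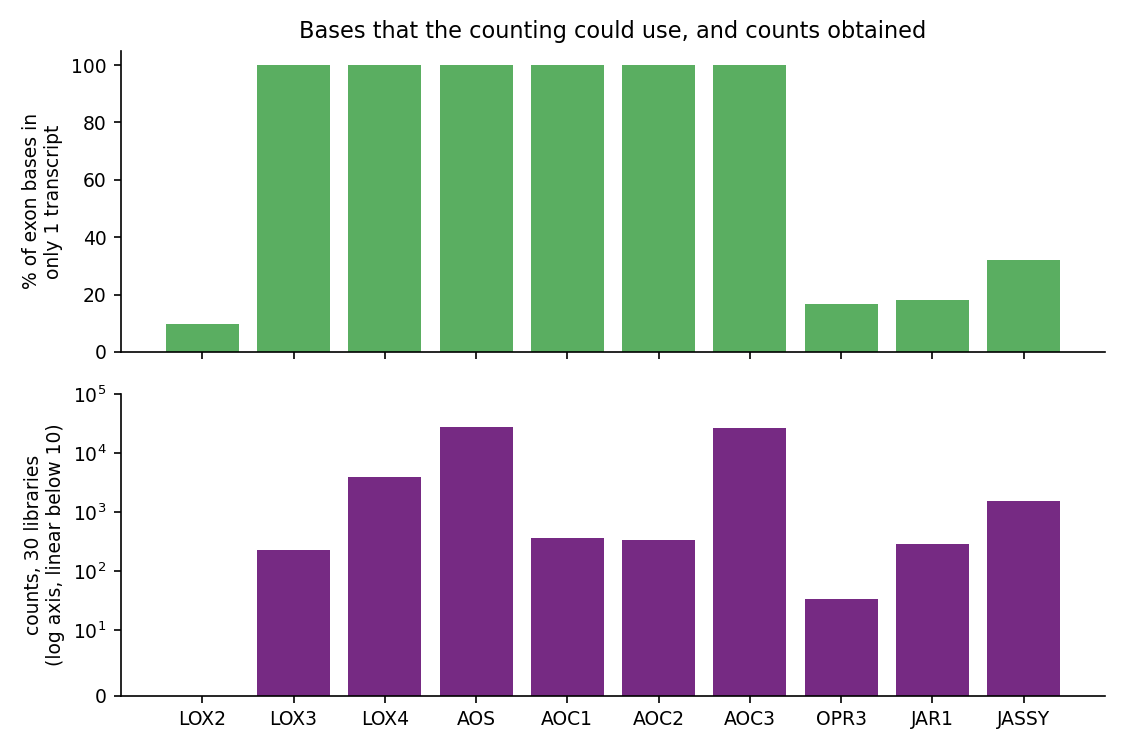
Share of exon bases that lie in only 1 annotated transcript (upper panel, percent) and counts summed over the 30 libraries (lower panel, log axis that is linear below 10) for each of the 10 genes. The 6 genes with 1 transcript stand at 100%, while LOX2 at 9.7% and OPR3 at 16.8% gave 0 and 34 counts.

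Library totals ran from 13125046 to 14790061 counts with a median of 14099582.5, so depth hardly differed between groups. As a check for 1 library deposited under 2 names, the counts of replicates were compared in 43 pairs, and the chi-square per degree of freedom ran from 6.07 to 41.8, so that no pair agreed within sampling noise. Within the Col-0 LN group, pairs with replicate 5 gave 29.5 to 41.8, against 7.79 to 16.5 among the other pairs. Line 308 LN replicate 3 also lay apart from its partners, with 20.7 and 24.9, against 15.1 between replicates 1 and 2. Some 1/2 MS pairs lay as far apart, such as those of Col-0 -AM replicate 4 (28.9 to 40.8), replicates 1 and 4 of line 308 -AM (34.8) and replicates 2 and 3 of line 310 +AM (30.2). Results that rest on the 2 LN libraries are given with and without them. Levels are given as CPM, the read count relative to library size in the field's usual unit, normalised by the trimmed mean of M-values (TMM), and the tests are quasi-likelihood F tests of edgeR with Benjamini-Hochberg adjusted p over 16540 genes and a threshold of 0.05. Fold changes are LN over 1/2 MS, transgenic line over Col-0, or +AM over -AM.

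AOC1, AOC2 and AOC3 stand next to each other on the plus strand of chromosome 3 (chr3:9403779-9405338, chr3:9406669-9408071 and chr3:9409160-9411090 in TAIR10), and the similarity of such copies matters for whether reads can be assigned. Their coding sequences were 90.3% identical between AOC1 and AOC2, 81.6% between AOC1 and AOC3 and 81.9% between AOC2 and AOC3. No window of 100 bases, the read length, was shared by any pair of these transcripts, nor with AOC4, so a full-length read without errors fits only 1 copy. LOX3 and LOX4 (80.1% identical) shared none either. The window of the coding sequence in which the 3 neighbouring copies are most alike is shown from RefSeq's genome (TAIR10.1), with the 2 of 60 positions at which they differ in capitals:
AOC1, chr3:9404669-9404728: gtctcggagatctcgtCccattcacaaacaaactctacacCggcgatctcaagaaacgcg
AOC2, chr3:9407403-9407462: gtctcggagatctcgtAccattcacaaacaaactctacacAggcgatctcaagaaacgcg
AOC3, chr3:9409973-9410032: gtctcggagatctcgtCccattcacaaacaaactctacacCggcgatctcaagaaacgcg
AOC1 and AOC3 are identical in this window and AOC2 differs, although over the whole coding sequence AOC1 is closer to AOC2.

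The 250 bases before the annotated start are shown for LOX3, LOX4 and AOC3, which were called higher on LN in both genotypes, and for AOS, which was called in neither, with sequence from the same genome. That of AOC1, also called in both, is shown further on beside that of AOC2. Capitals mark matches, on either strand, to CACGTG (the G-box), CACATG (a G-box variant bound by MYC2), GNATATNC (the core of the site of the phosphate-starvation regulator PHR1) or the W-box forms TTGACC and TTGACT that WRKY factors bind:
LOX3, chr1:5977073-5977322, plus strand: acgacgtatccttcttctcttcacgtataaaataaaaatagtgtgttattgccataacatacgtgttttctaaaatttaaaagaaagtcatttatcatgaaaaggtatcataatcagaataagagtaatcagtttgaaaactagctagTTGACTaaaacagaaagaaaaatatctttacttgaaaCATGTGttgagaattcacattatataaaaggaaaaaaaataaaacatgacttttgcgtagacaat
LOX4, chr1:27308263-27308512, plus strand: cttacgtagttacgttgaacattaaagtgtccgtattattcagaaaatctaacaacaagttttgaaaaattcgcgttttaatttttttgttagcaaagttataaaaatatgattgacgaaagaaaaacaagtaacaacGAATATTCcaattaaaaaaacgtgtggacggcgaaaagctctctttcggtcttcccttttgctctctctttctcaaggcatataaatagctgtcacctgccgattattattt
AOC3, chr3:9408910-9409159, plus strand: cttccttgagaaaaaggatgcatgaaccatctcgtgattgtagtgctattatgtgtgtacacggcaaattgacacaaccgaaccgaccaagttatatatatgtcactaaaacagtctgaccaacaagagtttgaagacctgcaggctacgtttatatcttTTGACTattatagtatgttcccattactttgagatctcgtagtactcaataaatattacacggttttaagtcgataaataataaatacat
AOS, chr5:17099596-17099845, minus strand: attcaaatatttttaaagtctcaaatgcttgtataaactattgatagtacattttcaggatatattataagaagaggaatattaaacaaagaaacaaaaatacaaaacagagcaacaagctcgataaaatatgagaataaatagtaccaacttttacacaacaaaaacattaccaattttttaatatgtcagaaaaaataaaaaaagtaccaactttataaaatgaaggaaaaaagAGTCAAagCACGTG
In these windows LOX3 held CACATG (first base 65 before the start) and TTGACT (102 before), LOX4 held GNATATNC (112 before), AOC3 held TTGACT (90 before), and AOC1 held none of the 5 forms. AOS, which did not pass the test between media, held CACGTG directly before its start and TTGACT 14 bases before it. Among 27443 promoters of the same length, 6.5% held CACGTG, 11.1% CACATG, 5.5% GNATATNC, 12.2% TTGACC and 19.1% TTGACT, and the counts below are read against those shares. CACGTG stood in 1 of the 10 windows, CACATG in 3, GNATATNC in 2, TTGACC in 2 and TTGACT in 3.

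The levels of the 8 tested genes in every library are plotted by group, and the account follows the order of the pathway.

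**Figure D2:**
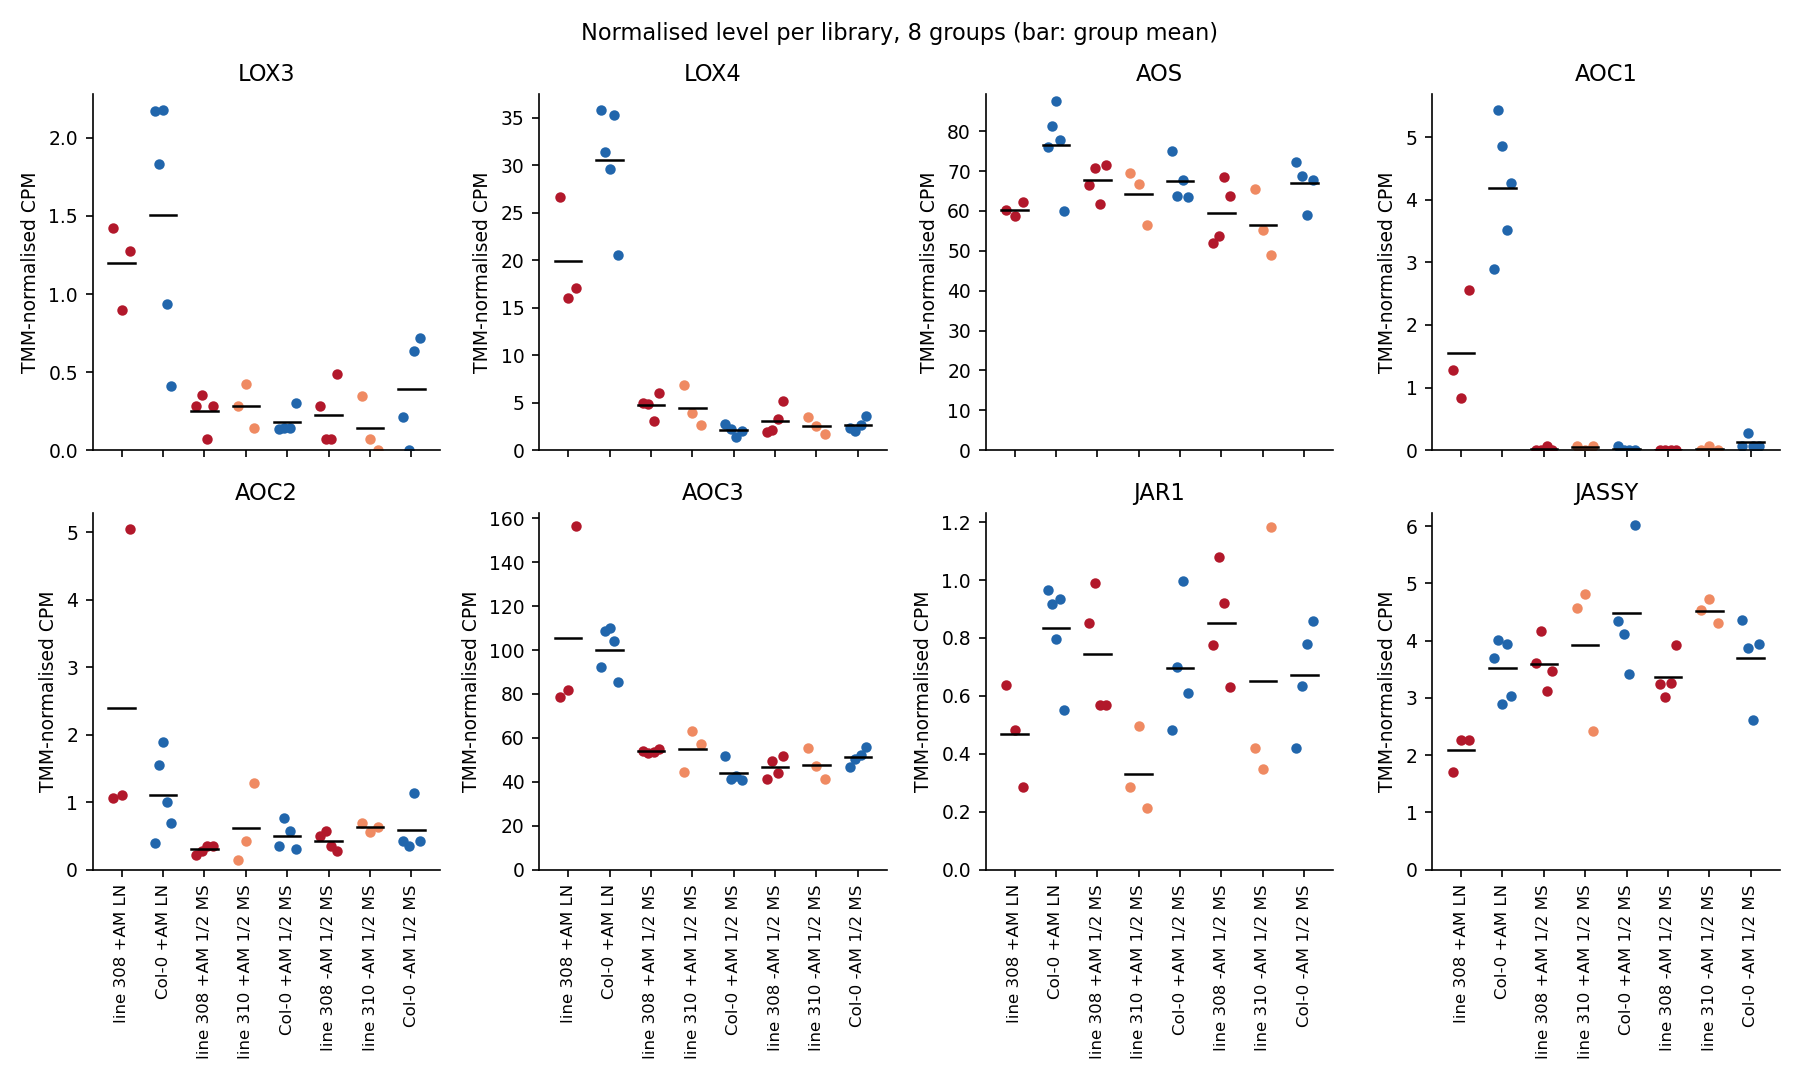
TMM-normalised CPM (linear axes from 0) of the 8 tested genes in each of the 30 libraries, by group, with line 308 in dark red, line 310 in orange and Col-0 in blue, and a black bar at each group mean. LOX3, LOX4, AOC1 and AOC3 are highest in the LN groups at the left of each panel, AOS lies between 48.9 and 87.5 CPM throughout, and line 308 LN replicate 3 stands above its partners for AOC2 (5.04 CPM) and AOC3 (157 CPM).

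LOX4 encodes 1 of the 13-lipoxygenases that start the pathway, and it changed with the medium in both genotypes. In line 308 it had 26.6, 15.98 and 17.04 CPM on LN, against 4.96, 4.88, 3.05 and 6.03 CPM on 1/2 MS. In Col-0 it had 35.8, 31.4, 29.7, 35.3 and 20.6 CPM on LN, against 2.76, 2.23, 1.42 and 2.06 CPM on 1/2 MS. Every LN library was therefore above every 1/2 MS library, mock-inoculated libraries included, whose highest value was 5.18 CPM. On the log2 scale LOX4 rose by 2.08 ± 0.24 (SE) on LN in line 308 (4.22-fold, edgeR adjusted p = 0.000249). In Col-0 it rose by 3.84 ± 0.21 (14.3-fold, edgeR adjusted p = 1.42e-07). LOX4 was the only one of the 8 genes whose response to the medium differed between the genotypes by the interaction test: the log2 response was smaller by 1.73 in line 308 (-1.73 ± 0.34, edgeR adjusted p = 0.0134). That test called 5.5% of all genes, 2.6% with a positive and 2.9% with a negative difference. Leaving out any single library kept this call, with values from -2.002 to -1.60. It was lost when only libraries with the prefixed name form were used (-1.60, adjusted p = 0.103, over alternatives 5.41e-08 to 0.103), a fit with 2 line 308 and 3 Col-0 LN libraries in which no gene at all was called.

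LOX3 encodes a close relative of LOX4 and was much less abundant. Per kilobase of transcript the Col-0 LN mean was 0.488 CPM for LOX3, against 10.03 CPM for LOX4. LOX3 had 1.42, 0.895 and 1.28 CPM in line 308 on LN, against 0.284, 0.354, 0.0710 and 0.284 CPM on 1/2 MS. It had 2.17, 1.83, 2.17, 0.933 and 0.413 CPM in Col-0 on LN, against 0.138, 0.140, 0.142 and 0.305 CPM on 1/2 MS. The groups did not overlap in either genotype, although Col-0 LN replicate 5 (0.413 CPM) lay below the highest mock-inoculated Col-0 library (0.716 CPM). The log2 fold change on LN was 2.24 ± 0.41 in line 308 (4.71-fold, edgeR adjusted p = 0.00295) and 2.99 ± 0.56 in Col-0 (7.96-fold, edgeR adjusted p = 0.00141). These rest on few reads: 51 counts in 3 libraries against 14 in 4 in line 308, and 102 counts in 5 libraries against 10 in 4 in Col-0.

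AOS, a cytochrome P450 encoded by 1 gene in Arabidopsis, makes the allene oxide from which jasmonates derive, and its level hardly moved. It ranged from 48.9 to 87.5 CPM over the 30 libraries, with a coefficient of variation of 13.3%, against 119% for LOX4 and 42.7% for AOC3. On LN it had 60.3, 58.6 and 62.1 CPM in line 308, and 76.0, 81.4, 87.5, 77.7 and 60.02 CPM in Col-0. On 1/2 MS with the fungus it averaged 67.6 ± 4.55 CPM in line 308 (SD, n = 4) and 67.5 ± 5.34 CPM in Col-0 (SD, n = 4). The log2 difference between media was -0.16 ± 0.08 in line 308 (edgeR adjusted p = 0.152) and 0.18 ± 0.10 in Col-0 (edgeR adjusted p = 0.205). Without Col-0 LN replicate 5, whose 60.02 CPM is the lowest of its group, the Col-0 value passed the test at 0.25 (edgeR adjusted p = 0.0218). Over all 8 groups at once, AOS did differ (edgeR adjusted p = 0.0223).

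The 3 neighbouring AOC genes close the ring that gives OPDA, and they differed widely in level and in response. Per kilobase, the Col-0 LN means were 60.3 CPM for AOC3, 3.52 CPM for AOC1 and 0.851 CPM for AOC2. AOC4, the fourth copy on chromosome 1, was the most abundant at 92.8 CPM per kilobase. AOC3 had 78.6, 81.9 and 157 CPM in line 308 on LN, against 53.9, 53.0, 53.6 and 54.98 CPM on 1/2 MS. In Col-0 it had 92.3, 109, 110, 104 and 85.4 CPM on LN, against 52.0, 41.3, 42.7 and 40.7 CPM on 1/2 MS. The media did not overlap in either genotype. AOC3 rose 1.97-fold in line 308 (log2 0.98 ± 0.21, edgeR adjusted p = 0.00604) and 2.26-fold in Col-0 (log2 1.18 ± 0.10, edgeR adjusted p = 4.81e-06). Without line 308 LN replicate 3 the log2 change in line 308 was 0.58 (edgeR adjusted p = 0.000983).

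AOC1 was close to absent on the standard medium and present on LN. It had 18, 12 and 36 counts in the line 308 LN libraries, against 0, 0, 1 and 0 counts on 1/2 MS with the fungus. In Col-0 it had 36, 77, 67, 49 and 62 counts on LN, against 1, 0, 0 and 0 counts on 1/2 MS. In CPM the LN libraries lay between 0.827 and 2.56 in line 308 and between 2.90 and 5.43 in Col-0. The ratio of summed counts, scaled by normalised library size, was 87.3 in line 308 with a 95% counting interval of 15.1 to 3498, and 237 in Col-0 with an interval of 42.1 to 9376 (exact conditional binomial intervals, which cover counting error only). The size of these ratios is poorly known because each denominator is 1 count. Both passed the test (edgeR adjusted p = 0.000594 in line 308 and 8.5e-07 in Col-0). AOC1 entered that test only through its LN libraries, because no other library reached the count filter. The highest standard-medium library, Col-0 -AM replicate 2, had 4 counts.

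AOC2 had 1.07, 1.102 and 5.04 CPM in line 308 on LN, against 0.213, 0.283, 0.355 and 0.355 CPM on 1/2 MS. It had 0.403, 1.55, 1.88, 1.01 and 0.688 CPM in Col-0 on LN, against 0.345, 0.768, 0.570 and 0.305 CPM on 1/2 MS. The media did not overlap in line 308 and did in Col-0. AOC2 rose 7.81-fold in line 308 (log2 2.97 ± 0.65, edgeR adjusted p = 0.00703), and without replicate 3 the log2 change was 1.82 (edgeR adjusted p = 0.0076). In Col-0 the log2 difference was 1.14 ± 0.46 and missed the threshold (edgeR adjusted p = 0.0777). It passed when Col-0 LN replicate 1 (1.34, edgeR adjusted p = 0.0285) or replicate 5 (1.27, edgeR adjusted p = 0.0479) was left out, and over all alternatives the adjusted p ran from 0.00328 to 0.184. The difference between genotypes in this response was 1.85 ± 0.87 and did not pass (edgeR adjusted p = 0.204).

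A run of 19 bases was found in the promoters of both AOC1 and AOC2 and in no other of the 27443 promoters searched. It was noticed after the sequences had been read and is shown in capitals, beside AOC2's own window, because these 2 copies lie next to each other. In AOC1 it starts 117 bases before the annotated start, and in AOC2 it ends at the base before it:
AOC1, chr3:9403529-9403778, plus strand: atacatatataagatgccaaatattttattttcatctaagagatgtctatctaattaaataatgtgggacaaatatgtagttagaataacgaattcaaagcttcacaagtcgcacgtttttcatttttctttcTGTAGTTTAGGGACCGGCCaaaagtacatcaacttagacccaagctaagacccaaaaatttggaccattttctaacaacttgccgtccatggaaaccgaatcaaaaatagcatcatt
AOC2, chr3:9406419-9406668, plus strand: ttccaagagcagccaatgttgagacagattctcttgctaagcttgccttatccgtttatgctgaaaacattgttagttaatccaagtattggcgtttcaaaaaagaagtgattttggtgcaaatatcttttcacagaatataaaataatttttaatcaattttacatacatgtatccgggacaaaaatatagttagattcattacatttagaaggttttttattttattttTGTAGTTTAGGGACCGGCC
Apart from this run, no 2 of the 10 promoters shared more than 11 bases in a row.

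JASSY, the OPDA export protein, was the one gene of the 8 that was called lower on LN. In line 308 it had 1.70, 2.27 and 2.27 CPM on LN, against 3.61, 4.17, 3.12 and 3.48 CPM on 1/2 MS, without overlap. It fell by 0.78 on the log2 scale (-0.78 ± 0.20, edgeR adjusted p = 0.0139). Without line 308 LN replicate 1 the value was -0.66 and missed the threshold (edgeR adjusted p = 0.0501, over all alternatives 0.00405 to 0.0501). In Col-0 it had 3.70, 4.02, 2.90, 3.95 and 3.03 CPM on LN, against 4.35, 4.12, 3.42 and 6.01 CPM on 1/2 MS (-0.35 ± 0.19, edgeR adjusted p = 0.181). These values stem almost wholly from 1 isoform. The difference between the genotypes in the response was -0.40 ± 0.28 and did not pass (edgeR adjusted p = 0.394).

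JAR1, which makes the active isoleucine conjugate, was measured from only 3 to 17 counts per library. On LN it had 0.639, 0.482 and 0.284 CPM in line 308, and 0.966, 0.916, 0.797, 0.933 and 0.550 CPM in Col-0. On 1/2 MS with the fungus its means were 0.744 ± 0.211 CPM in line 308 (SD, n = 4) and 0.697 ± 0.219 CPM in Col-0 (SD, n = 4). JAR1 did not pass the test in any comparison. It was also the only tested gene that did not differ when all 8 groups were tested together (edgeR adjusted p = 0.0999), where the other 7 of 8 did, against 58.2% of all genes. AOC1, among these 7, met the count filter only through its LN libraries. OPR3 had 3 counts in the line 308 LN libraries and 7 in those of Col-0, against 3 and 3 counts on 1/2 MS with the fungus, and LOX2 had none, so neither can be compared.

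Put together by medium, 5 of the 8 tested genes were higher and 1 was lower on LN in line 308 (AOC1, AOC2, LOX3, LOX4 and AOC3, and JASSY). In line 308, 31.7% of all genes were called, 16.7% higher and 15% lower. In Col-0, 4 of the 8 were higher (AOC1, LOX4, LOX3 and AOC3) and 0 lower, where 35.8% of all genes were called, 19.3% higher and 16.5% lower. The median log2 change of the 8 was 1.53 in line 308, against 0.01 over all genes, and 1.16 in Col-0, against 0.01 over all genes. The groups did not overlap for 6 of the 8 genes in line 308 and for 4 of the 8 in Col-0, against 39.3% and 30% of all genes. AOC1 passed the count filter only through its LN libraries. Its place in these counts and medians therefore depended on a high LN level and adds no separate evidence of a rise.

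**Figure D3:**
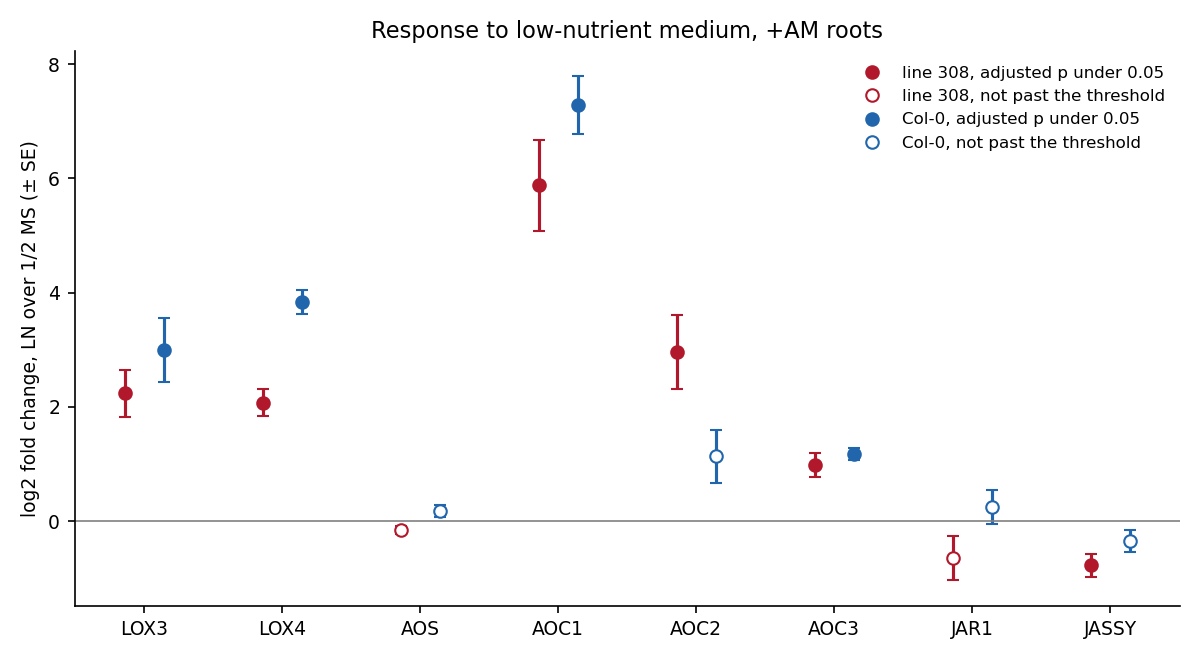
Log2 fold change of LN over 1/2 MS with its standard error for the 8 tested genes in +AM roots, line 308 in red left of Col-0 in blue, with filled points where the edgeR adjusted p was under 0.05. LOX4 stands at 2.08 in line 308 and 3.84 in Col-0, AOC1 has the largest values, which rest on 1 count in each 1/2 MS group, and AOS stays near 0 in both. AOC1 met the count filter only through its LN libraries.

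On LN, line 308 and Col-0 differed in 1 of the 8 genes, and that call was fragile. AOC1 was lower in line 308, with 0.827 to 2.56 CPM, against 2.90 to 5.43 CPM in Col-0 (log2 -1.41 ± 0.34, edgeR adjusted p = 0.0344). Of all genes, 8.64% were called, 3.49% higher and 5.15% lower. Leaving out line 308 LN replicate 1 or 2 or Col-0 LN replicate 2, 3 or 4 ended the AOC1 call, with adjusted p from 0.0642 to 0.109 and values from -1.46 to -1.103. The means of JASSY were 2.08 ± 0.33 CPM in line 308 (SD, n = 3) and 3.52 ± 0.52 CPM in Col-0 (SD, n = 5), without overlap (as in 16.8% of all genes), but the difference missed the threshold (log2 -0.73 ± 0.21, edgeR adjusted p = 0.0545). LOX4 (log2 -0.59 ± 0.21, edgeR adjusted p = 0.0931) and AOS (log2 -0.31 ± 0.11, edgeR adjusted p = 0.0901) missed it as well. The AOC3 log2 difference was 0.11 with all libraries and -0.29 without line 308 replicate 3, and that of AOC2 was 1.13 with it and -0.01 without it. Green tissue markers were lower in line 308 in the same contrast, with 4 of the 6 tested genes (of 11) called lower, a median log2 difference of -0.94 and a sum of 185 to 360 CPM in line 308, against 486 to 676 CPM in Col-0. Of 8 tested genes of the rapid response to touch and wounding, 1 was higher in line 308 and 0 were lower, with a sum of 622 to 754 CPM in line 308, against 542 to 1037 CPM in Col-0. The part of these groups in the differences was not tested.

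A fit without both outlying LN libraries was added after the data were seen, and it leaves 2 of line 308 and 4 of Col-0. In it, 5 of the 8 genes were lower in line 308 and none was higher. The log2 differences were then -1.95 for AOC1 (edgeR adjusted p = 0.00493), -0.84 for JASSY (edgeR adjusted p = 0.0404), -0.60 for LOX4 (edgeR adjusted p = 0.0436), -0.41 for AOS (edgeR adjusted p = 0.0107) and -0.34 for AOC3 (edgeR adjusted p = 0.0298). In that fit 3315 of all 16540 genes tested were called, both directions together, against 1429 with all 8 libraries. With Col-0 replicate 5 alone left out, LOX4, AOS, AOC1 and JASSY were called lower and 4192 genes were called in all. With line 308 replicate 3 alone left out, only AOC1 of the 8 was called, and 240 genes in all. With only the prefixed libraries, none of the 8 was called, and 13 genes in all.

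On the standard medium the differences between transgenic lines and Col-0 were small for most of the 8 genes. With the fungus, LOX4 had 4.96, 4.88, 3.05 and 6.03 CPM in line 308 and 6.85, 3.89 and 2.64 CPM in line 310, against 2.76, 2.23, 1.42 and 2.06 CPM in Col-0. It was higher in line 308 (log2 1.15 ± 0.25, 2.22-fold, edgeR adjusted p = 0.0205), the only one of the 8 genes called, where 6.66% of all genes were called, 2.58% higher and 4.09% lower. Leaving out line 308 replicate 2 or 4 or Col-0 replicate 2 or 3 moved the adjusted p to between 0.0501 and 0.0638, with log2 values from 1.01 to 1.17. In line 310 the log2 difference was 1.07 ± 0.34 and missed the threshold (edgeR adjusted p = 0.391), in a contrast where 0.0302% of all genes were called. Without line 310 replicate 1 it was 0.62. AOC3 had a fold of 1.22 in line 308 without overlap between the groups, as in 14.3% of all genes (52.97 to 54.98 CPM, against 40.7 to 52.0 CPM in Col-0), and it missed the threshold too (log2 0.28 ± 0.09, edgeR adjusted p = 0.0803). In this contrast of line 308 with Col-0, 5 of the 6 tested green tissue markers were lower (median log2 -1.07), with a sum of 554 to 907 CPM in line 308, against 1525 to 1796 CPM in Col-0. The touch and wound genes CBF2 and WRKY33, 2 of 8 tested, were higher, with a sum over the list of 368 to 493 CPM in line 308, against 278 to 351 CPM in Col-0. Their part in the LOX4 difference was not tested.

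In mock-inoculated roots none of the 8 genes was called by edgeR between line 308 and Col-0 (1 of 8 at an unadjusted p under 0.05, and 0 by DESeq2), where 1.92% of all genes were called. None was called between line 310 and Col-0 either (0 of 8 at an unadjusted p under 0.05, and 0 by DESeq2, with 0.0121% of all genes called). LOX4 averaged 3.12 ± 1.51 CPM in line 308 (SD, n = 4) and 2.60 ± 0.88 CPM in line 310 (SD, n = 3), against 2.64 ± 0.69 CPM in Col-0 (SD, n = 4). AOC1 had 0 counts in the 4 line 308 libraries and 1 count in the 3 of line 310, against 7 counts in the 4 of Col-0. The 95% counting interval of the ratio of line 308 to Col-0 reached up to 0.694, and the edgeR adjusted p was 0.168.

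The short exposure to the fungus changed none of the 8 genes past the threshold in any genotype. In line 308 edgeR called 0 of 8 (1 at an unadjusted p under 0.05, 0 by DESeq2), with 0.0121% of all genes called. In line 310 it called 0 of 8 (0 at an unadjusted p under 0.05, 0 by DESeq2), with 0% of all genes called. In Col-0 it called 0 of 8 (1 at an unadjusted p under 0.05, 0 by DESeq2), with 0.871% of all genes called, or 144 genes, a count that was 3 without Col-0 -AM replicate 3 and 904 without Col-0 +AM replicate 1. The log2 difference of LOX4 between +AM and -AM roots was 0.59 ± 0.31 in line 308, 0.77 ± 0.39 in line 310 and -0.32 ± 0.25 in Col-0. The value in line 310 was 0.32 without its +AM replicate 1, and leaving out each line 308 library in turn gave 0.41 to 0.95 there. That of AOC3 was 0.20 ± 0.08 in line 308, 0.19 ± 0.16 in line 310 and -0.22 ± 0.10 in Col-0, and in line 310 it ran from 0.078 to 0.32 with 1 library left out. The differences between genotypes did not pass. For LOX4 the difference from Col-0 was 0.91 ± 0.44 in line 308 (edgeR adjusted p = 0.674) and 1.09 ± 0.48 in line 310 (edgeR adjusted p = 0.629), and both share the Col-0 libraries. For AOC3 it was 0.42 ± 0.13 in line 308 (edgeR adjusted p = 0.428) and 0.41 ± 0.18 in line 310 (edgeR adjusted p = 0.629). These interaction tests called 0% of all genes.

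**Figure D4:**
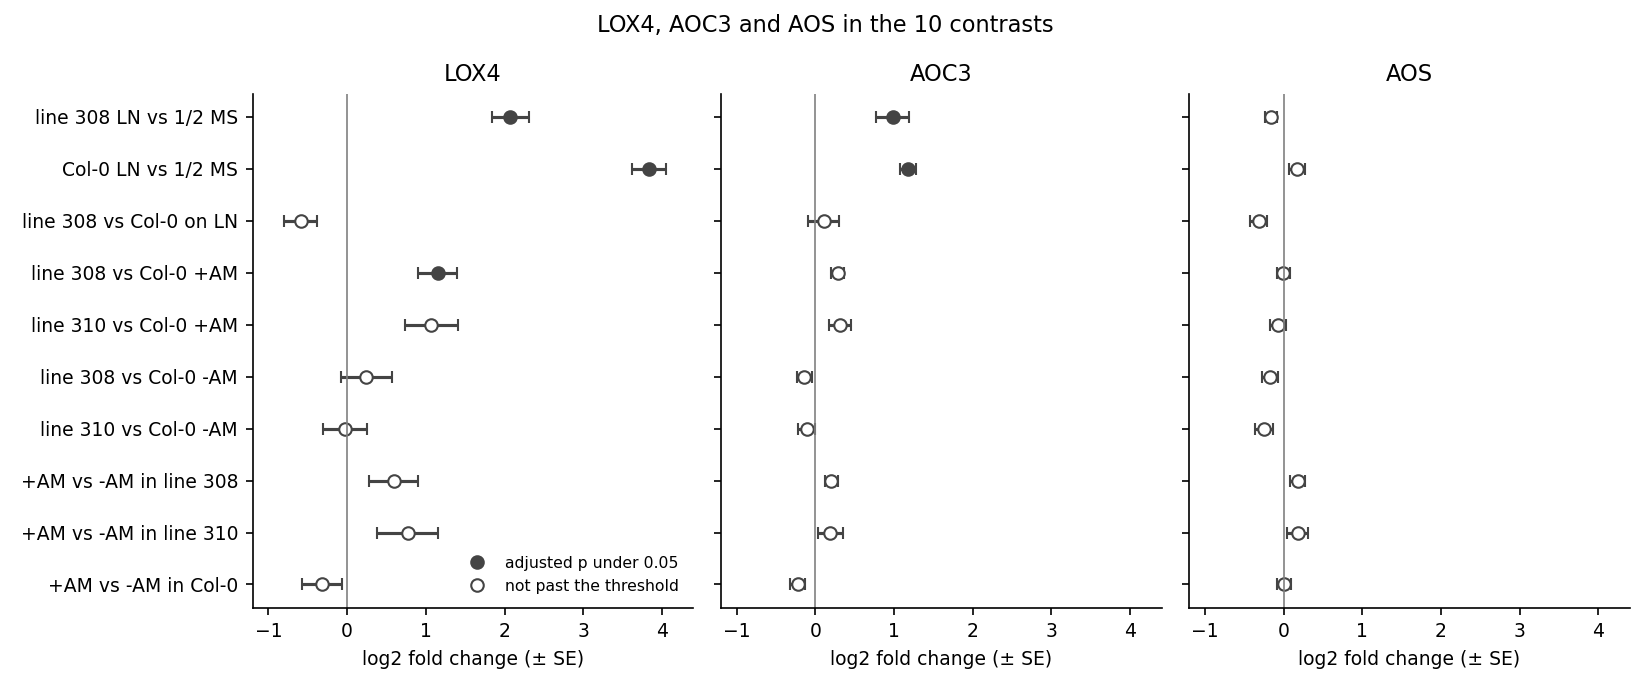
Log2 fold change with its standard error for LOX4, AOC3 and AOS in the 10 contrasts between pairs of groups, the first-named group over the second, with filled points where the edgeR adjusted p was under 0.05. The values that pass are those of LOX4 and AOC3 between media and that of LOX4 in line 308 against Col-0 with the fungus at 1.15, while AOS lies between -0.31 and 0.18 in all 10.

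Of 27 further genes of the synthesis pathway, 19 passed the count filter. In line 308, 1 of the 19 was higher and 5 were lower on LN, beside 16.7% and 15% of all genes. The 19 had a median log2 change of -0.19 there. In Col-0, 5 were higher and 3 were lower, beside 19.3% and 16.5% of all genes, with a median of 0.17. The same shares of all genes stand beside the counts of the shorter lists between media. The list of methylation and nuclear import holds JMT and JAT1, both tested, of which 1 was higher in line 308 and 2 in Col-0. The transporter JAT1, which moves jasmonates across the plasma and nuclear membranes, was higher in both. It had a mean of 41.1 ± 6.24 CPM in line 308 on LN (SD, n = 3), against 19.9 ± 7.69 CPM on 1/2 MS (SD, n = 4, log2 1.05 ± 0.24, edgeR adjusted p = 0.00845). In Col-0 it had 52.3 ± 12.8 CPM on LN (SD, n = 5), against 15.6 ± 4.41 CPM on 1/2 MS (SD, n = 4, log2 1.74 ± 0.22, edgeR adjusted p = 8.77e-05). JMT, which makes methyl jasmonate, had a log2 difference of 1.35 ± 0.69 in line 308 that missed the threshold (edgeR adjusted p = 0.164), and it rose in Col-0 by 1.68 ± 0.48 (edgeR adjusted p = 0.016), both from few reads.

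Of 4 other lipoxygenases and enzymes of a competing branch, 3 were tested, with 0 higher and 1 lower on LN in line 308 and 1 higher and 1 lower in Col-0. The lipoxygenase LOX6, a 13-lipoxygenase that acts in roots and was more abundant than LOX3 and LOX4 per kilobase (30.3 CPM in Col-0 on LN), passed the test in Col-0 alone. In line 308 it averaged 68.8 ± 5.37 CPM on LN (SD, n = 3), against 70.2 ± 2.999 CPM on 1/2 MS (SD, n = 4, log2 -0.02 ± 0.08, edgeR adjusted p = 0.858). In Col-0 it averaged 101 ± 18.3 CPM on LN (SD, n = 5), against 66.6 ± 6.79 CPM on 1/2 MS (SD, n = 4, log2 0.60 ± 0.13, edgeR adjusted p = 0.00441). The difference between these responses was -0.59 ± 0.17 and missed the threshold (edgeR adjusted p = 0.0549). The 9-lipoxygenase LOX5, which lies outside jasmonate synthesis, was lower on LN in both (log2 -0.45 ± 0.10 in line 308 and -0.43 ± 0.12 in Col-0). AOC4 did not pass the test between media (log2 -0.19 ± 0.08 in line 308, edgeR adjusted p = 0.092, and -0.20 ± 0.11 in Col-0, edgeR adjusted p = 0.186). Of 10 genes of peroxisomal import and beta-oxidation, 8 were tested. In line 308, 0 were higher and 4 lower on LN, and in Col-0, 1 was higher and 2 lower. The acyl-CoA oxidase ACX5 and the thiolase KAT2 were lower on LN in both genotypes, with log2 changes of -0.42 and -0.33 in line 308 and of -0.38 and -0.34 in Col-0. The other calls were AIM1 (-0.39) and the importer PXA1 (-3.49 ± 0.80), lower in line 308, and MFP2 (0.37 ± 0.11), higher in Col-0. PXA1 held only 129 counts over the 30 libraries, from the 8.4% of its exon bases that lie in only 1 transcript. Of the plastid lipases and desaturases, 0 of 4 tested genes passed in line 308 (2 at an unadjusted p under 0.05) and 1 of 4 passed in Col-0, the lipase PLIP3 (log2 0.56 ± 0.18).

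Of 10 genes of enzymes that break down or store jasmonates, 8 were tested. In line 308, 2 were higher and 0 lower on LN, beside 16.7% of all genes higher, and in Col-0, 5 were higher and 1 lower, beside 19.3% of all genes higher. CYP94B3, which oxidises the isoleucine conjugate, rose by log2 1.36 ± 0.20 in line 308 and 1.44 ± 0.15 in Col-0, and CYP94C1, which acts after it, by 0.90 ± 0.16 and 0.80 ± 0.17. Of the 13 JAZ repressors, which are direct targets of the hormone, 6 were tested. None of these passed in line 308 by edgeR (0 of 6 also at an unadjusted p under 0.05), and 2 were higher in Col-0.

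**Figure D5:**
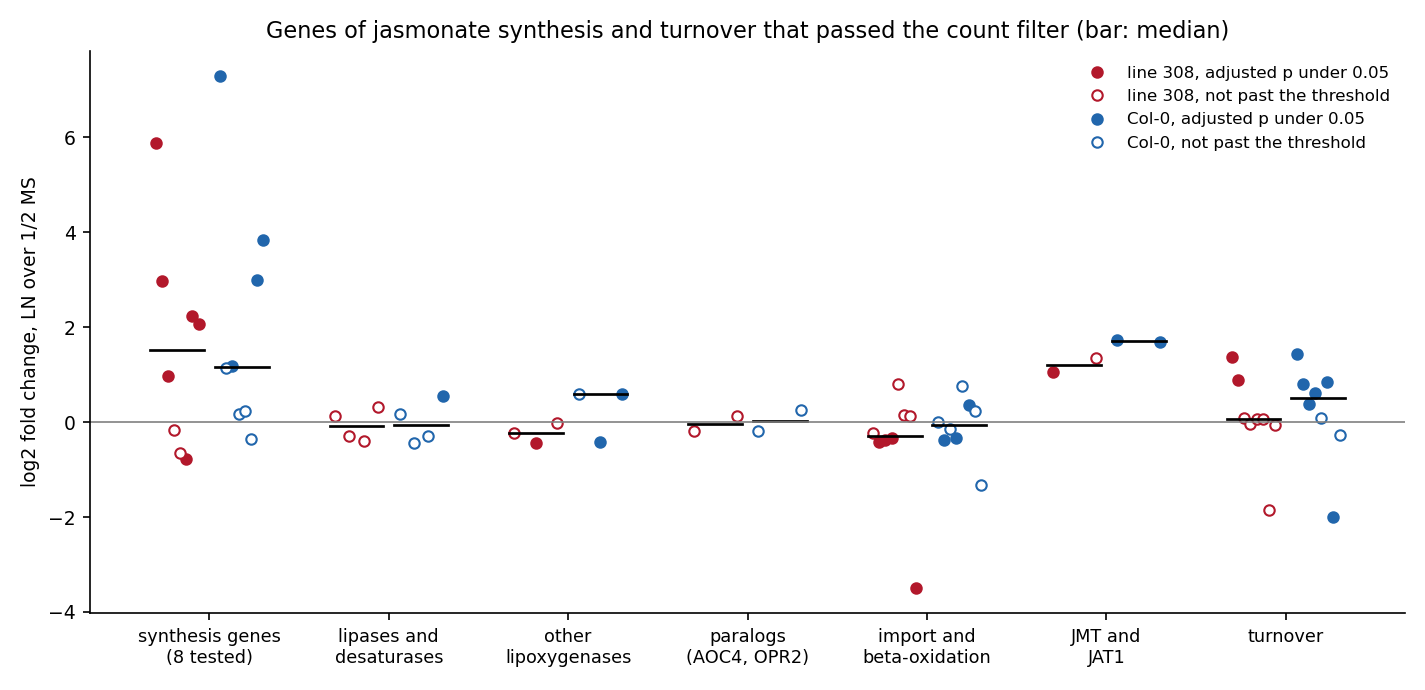
Log2 fold change of LN over 1/2 MS for each tested gene of jasmonate synthesis and turnover, line 308 in red left of Col-0 in blue, with filled points where the edgeR adjusted p was under 0.05 and a black bar at each median. The medians of the 8 synthesis genes stand at 1.53 and 1.16, and those of the lipase, paralog and beta-oxidation groups lie between -0.28 and 0.03. The synthesis medians include AOC1, which met the count filter only through its LN libraries. JMT and JAT1 lie above 0 in both genotypes, and in Col-0 both lie above the median of the synthesis genes. Most turnover genes also rose in Col-0.

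Other gene groups moved with the same contrast, beside 16.7% of all genes higher and 15% lower on LN in line 308. In Col-0 these shares were 19.3% and 16.5%. Of 9 genes of the rapid response to touch and wounding, 8 were tested and 7 rose on LN in each genotype. Their summed level was 622 to 754 CPM in line 308 on LN, against 368 to 493 CPM on 1/2 MS, and 542 to 1037 CPM in Col-0 on LN, against 278 to 351 CPM on 1/2 MS. Green tissue markers fell: 4 of the 6 tested genes (of 11) were lower on LN in each genotype. Their sum was 185 to 360 CPM in line 308 on LN, against 554 to 907 CPM on 1/2 MS, and 486 to 676 CPM in Col-0 on LN, against 1525 to 1796 CPM on 1/2 MS. LHCB1.3 and PSBO1 made up most of it. RBCS3B had 0 counts in every library, with 30.2% of its exon bases in only 1 of its 3 transcripts. This 0 does not measure how strongly RBCS3B was expressed. All 8 root markers were tested, with 2 higher and 1 lower on LN in line 308 and 3 higher and 1 lower in Col-0. They had a sum of 5979 to 7323 CPM in line 308 and 7271 to 9786 CPM in Col-0 on LN. On 1/2 MS with the fungus the sum was 14620 to 16960 CPM in line 308 and 15640 to 20050 CPM in Col-0. PYK10 carried most of it and fell on LN in both genotypes (log2 -1.32 ± 0.11 in line 308 and -1.07 ± 0.12 in Col-0), while the root hair genes COBL9 and EXPA7 rose in both and SHR, a regulator of root patterning, rose in Col-0 (0.30 ± 0.09). The part of these groups in the results for the 8 genes was not tested, and in bulk roots fewer cells of a type and less RNA per cell cannot be told apart.

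Across the 30 libraries LOX3, LOX4, AOC1 and AOC3, which rose on LN in both genotypes, had Pearson's r of 0.74 to 0.90 with each other. On log2 CPM, r was 0.90 between AOC1 and AOC3, 0.90 between LOX4 and AOC1, 0.88 between LOX4 and AOC3 and 0.85 between LOX3 and LOX4. AOC2 had r of 0.45 with LOX4, 0.50 with LOX3, 0.62 with AOC1 and 0.72 with AOC3. These values mostly restate the difference between the media. With group means removed, r was 0.44 between AOC1 and AOC3, -0.15 between LOX4 and AOC1, 0.10 between LOX4 and AOC3, 0.60 between LOX3 and LOX4 and 0.65 between LOX4 and AOS. They are descriptions over 30 libraries that share 8 groups. Among 13470 genes of at least 1 CPM on average, those most like LOX4 over the 30 libraries were AT3G21305 (r = 0.97), AT1G49900 (0.96) and AT1G22410 (0.96). Those most like AOC3 were P4H5 (0.94), SWEET14 (0.93) and FAF4 (0.93). AOS had no gene nearly as close, with LigB (0.74) first, and JASSY was closest to AT1G76820 (0.81).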

How the data were processed

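Roots of Arabidopsis were profiled by strand-specific poly-A RNA-seq with paired 100-base reads in 30 libraries of 8 groups. The Lotus libraries of the series were not used here. The authors removed low-quality reads with SOAPnuke, aligned and separated plant and fungal reads with BBSplit, and deposited raw read counts per Araport11 transcript (TAIR10 coordinates) from featureCounts 2.0.1. The submitters' processing notes also list HISAT2 and DESeq2, whose role is not given in the sources used here. With pairs on several transcripts left uncounted, genes with many isoforms are measured from few bases. Deposited counts were summed per gene, and no value of the authors' own comparisons was used.

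Genes with at least 10 counts in at least 1 of the 30 libraries were kept. Each contrast was fitted on its own libraries with edgeR 4.0.16 (limma 3.58.1, R 4.3.3), TMM factors, quasi-likelihood F tests and Benjamini-Hochberg adjustment at 0.05. A prior count of 2 was set for the log2 CPM values, as in the correlations, and not in these fits. Standard errors are the log2 fold change over the root of F. Count ratios have exact 95% intervals for counting error only. A count of 0 allows up to 3 counts. All 10 genes are named whatever their values, and other genes with the count of their list. The genes and lists were chosen with earlier results of these data known. Alternatives were DESeq2 1.42.0, a common-dispersion likelihood-ratio test, other scalings, filters and fits, counts per transcript, a replicate block, the form of the library name as a covariate, and leaving out each library. After the data were seen, 2 more were added: leaving out both LN libraries that stand apart, and using only libraries whose name carries a prefix that 3 LN libraries lack (line 308 replicate 3 and Col-0 replicates 1 and 3). On simulated counts for 16540 genes, with 100 changed 2-fold and 100 changed 4-fold, the Col-0 LN over 1/2 MS test recovered 73% and 92% with 13 false calls, and the medium interaction test recovered 57% and 88% with 3 false calls. The changed genes were drawn from those with a mean of at least 10 counts per library. These rates therefore do not cover genes with a lower mean. Sequences were read from RefSeq's TAIR10.1 genome, in which all 10 genes had the coordinates of the annotation used.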

Additional observations from a re-analysis of the deposited data

Results flagged for a closer look

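In 39 sets of values, each of 1 gene in 1 group of 4 or 5 libraries, 5 values lay far from the others by Dixon's criterion, which chance gives in about 1 of 20 sets. In 4 of the 5 (3 of AOC1 and that of LOX3) the other libraries had equal counts, so that any differing count could stand out and that rate does not apply. Line 308 +AM 1/2 MS replicate 3 (0.0710 CPM) and Col-0 +AM 1/2 MS replicate 1 (0.069 CPM) were each the only library of their group with a count of AOC1, and Col-0 -AM 1/2 MS replicate 2 had 0.282 CPM of AOC1 from 4 counts, where its partners had 1 count each. LOX3 was highest in Col-0 +AM 1/2 MS replicate 4 (0.305 CPM, 4 counts, where its partners had 2 counts each). AOC2 stood at 1.13 CPM in Col-0 -AM 1/2 MS replicate 3, from 16 counts, where its partners had 5 or 6. These values rest on few reads.

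The response of LOX4 to the medium differed between line 308 and Col-0 by an interaction test of edgeR, with a log2 difference of -1.73 (adjusted p = 0.0134). This call was lost when only prefixed libraries were used (edgeR adjusted p = 0.103). LOX4 was higher on LN in all 3 line 308 and all 5 Col-0 libraries than in any 1/2 MS library. On 1/2 MS with the fungus its mean was 4.73 ± 1.24 CPM in line 308 (SD, n = 4) and 2.12 ± 0.551 CPM in Col-0 (SD, n = 4). On LN it was 19.9 ± 5.87 CPM in line 308 (SD, n = 3) and 30.6 ± 6.17 CPM in Col-0 (SD, n = 5). Between the genotypes, the log2 difference on 1/2 MS with the fungus was 1.15 (edgeR adjusted p = 0.0205). That call was lost in 4 of 8 fits with 1 library left out. The log2 difference on LN was -0.59 and missed the threshold (edgeR adjusted p = 0.0931).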

How the results depend on the processing

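Between media, the calls of LOX3, LOX4, AOC1 and AOC3 held in both genotypes under each alternative run. Of these, AOC1 met the count filter only through its LN libraries. Leaving out 1 library in turn gave 4 to 6 of the 8 genes called in Col-0 and 5 to 6 in line 308, 0 to 4 between line 308 and Col-0 on LN, 0 to 2 with the fungus on 1/2 MS, 1 to 2 for the medium interaction, 6 to 8 over all groups, and 0 to 0 in the other contrasts. Between line 308 and Col-0 on LN, where 1 gene was called, DESeq2 called 3, the common-dispersion test 4, the fit of all 30 libraries 3, the fit without both LN libraries that stand apart 5 and that of prefixed libraries 0. For the medium interaction (1 called) the common-dispersion test called 2, the fit without both libraries 3 and the prefixed libraries 0. DESeq2 called 2 genes between line 308 and Col-0 with the fungus (1 called), and the common-dispersion test called 1 gene, where edgeR called 0, between line 308 and Col-0 without the fungus and between line 310 and Col-0 with it.

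Replicate numbers did not pair the libraries throughout any contrast. The lowest correlation of same-numbered libraries, on deviations from group means, was at most 0.035 in each. Single pairs were more alike, up to 0.339 for +AM against -AM in line 308. In line 308 against Col-0 with the fungus, 3 of 4 libraries matched their own number best. With a replicate block 6 genes were called between media in Col-0 and 6 in line 308, 3 between line 308 and Col-0 on LN and 2 for the interaction. Over all genes the block raised the calls too, from 1429 to 3328 on LN and from 909 to 2542 for the interaction. The block turned LOX4 between line 310 and Col-0 without the fungus to 0.13 and AOC3 between line 308 and Col-0 on LN to -0.0061.

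Other signs turned too. On LN, LOX3 was 0.15 with prefixed libraries, AOC2 was -0.14 without both libraries, and AOC3 was -0.34 without both and -0.29 with prefixed libraries. With 1 library left out in turn, AOC2 on LN ran from -0.010 to 1.48 and AOC3 from -0.29 to 0.28, both lowest without line 308 replicate 3. Without the fungus, LOX4 in line 308 against Col-0 ran from -0.11 to 0.42, LOX4 in line 310 against Col-0 from -0.29 to 0.21 and AOC3 there from -0.22 to 0.0040. For the interaction AOC1 ran from -2.98 to 0.18 and AOC3 from -0.61 to 0.0032. The causes were not tested.

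Counts over all genes moved more. On LN 1429 genes differed between line 308 and Col-0, against 2319 by DESeq2, 2633 with the common dispersion, 2953 with all 30 libraries, 3328 with the block, 3315 without both libraries and 13 with prefixed libraries. The interaction called 909 genes, against 1652, 1753, 2542 with the block, 2159 and 0. Without the fungus 317 genes differed between line 308 and Col-0, against 907 by DESeq2, 1488 with the common dispersion, 516 unfiltered and 597 with all libraries. With it the count was 1102, against 1908 with the common dispersion. The fungus called 144 genes in Col-0 (3 without Col-0 -AM replicate 3 and 904 without Col-0 +AM replicate 1), against 821, 1350, 312, 389 and, with the block, 83. In line 310 against Col-0, 2 genes without the fungus became 160 by DESeq2 and 325 with the common dispersion, and 5 with it became 189 and 548. The fungus called 2 genes in line 308 (115 and 164) and 0 in line 310 (18 and 80). The interactions with the fungus called 0, against 16 and 573 for line 308 and 9 and 470 for line 310.

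Depth limits LOX3, AOC1, AOC2 and JAR1, and the counting of single isoforms limits LOX2, OPR3, JAR1 and JASSY.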

Other observations

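Genes that perceive or carry out the jasmonate signal were compared between the media as well. Beside the counts below, 16.7% of all genes were higher and 15% lower on LN in line 308. In Col-0 these shares were 19.3% and 16.5%. Of 5 genes of perception and the MYC factors, 4 were tested, of which 1 was lower in line 308 and 0 passed in Col-0 by edgeR (2 at an unadjusted p under 0.05). MYC2, which switches on many jasmonate responses, was lower on LN in line 308 (log2 -0.57 ± 0.10, edgeR adjusted p = 0.00213) and stood at -0.33 ± 0.12 in Col-0 (edgeR adjusted p = 0.0564). The receptor gene COI1 did not pass in either (0.04 ± 0.08 in line 308 and -0.16 ± 0.08 in Col-0). Of 8 output genes 2 were tested. NATA1, an acetyltransferase gene induced by jasmonate, was at -1.30 ± 1.42 in line 308 (edgeR adjusted p = 0.521) and rose in Col-0 (3.92 ± 0.86, edgeR adjusted p = 0.0039). TAT3, an aminotransferase gene, did not pass in either (1.84 ± 0.73 in line 308 and 1.35 ± 0.56 in Col-0, edgeR adjusted p = 0.0801 in each). JAZ4 and JAZ7, 2 of the 6 tested repressor genes, rose in Col-0 (2.02 ± 0.62 and 1.09 ± 0.26) and were at -0.56 ± 0.86 and -0.01 ± 0.18 in line 308. The values of NATA1 and JAZ4 rest on few reads, with 159 and 88 counts over the 30 libraries. None of these genotype differences in the medium response passed the interaction test of edgeR: the adjusted p was 0.484 for MYC2, 0.165 for NATA1, 0.168 for JAZ4 and 0.0768 for JAZ7.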
